A study of Mus musculus with 4 samples.

Results

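The genes described here are 10 regulators of the spindle checkpoint and of anaphase: Bub1, Bub1b, Bub3, Mad2l1, Ttk, Cdc20, Fzr1, Fbxo5, Espl1 and Pttg1. They were chosen by symbol, and all 10 were found among the 19445 genes with a value in at least 1 library. The data are RNA levels in pachytene spermatocytes, male germ cells in the long prophase of the first meiotic division, from testes of adult C57BL/6 mice. Cells heterozygous for Tcfl5 (Tcfl5+/-, 2 libraries) were compared with cells of wild-type mice (Tcfl5+/+, 2 libraries). The product of Tcfl5 is a DNA-binding factor of the basic helix-loop-helix class, made in the male germ line, and the question posed is how RNA levels differ when 1 of its alleles is altered. The labels name no other allele or agent in either group, and they do not say how the Tcfl5 allele was disrupted or whether cells of several animals were pooled. Values are FPKM, which are scaled for transcript length as well as for sequencing depth, so levels of different genes can be set side by side.

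The spindle checkpoint holds a dividing cell in metaphase until every kinetochore is attached to spindle microtubules. Unattached kinetochores recruit Ttk, Bub1 and their partners, and these lead to a complex of Mad2l1, Bub1b and Bub3 that holds Cdc20, the activator of the anaphase-promoting complex. Once the checkpoint is satisfied, the anaphase-promoting complex marks securin (Pttg1) and cyclin B for destruction, and separase (Espl1) is freed to cleave cohesin. Pachytene spermatocytes have not yet built a spindle and face this checkpoint at the end of prophase, at the first meiotic division.

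Tcfl5 itself was at 137.0 and 188.5 FPKM in the Tcfl5+/- libraries, against 248.7 and 237.7 FPKM in the wild-type libraries. A value for the whole gene does not separate the alleles. Its groups did not overlap, and the difference did not pass the test used throughout, limma-trend on log2(FPKM + 1) with Benjamini-Hochberg adjustment over 13333 genes (adjusted p = 0.242). That test called 0 genes (0%), with 1759 at an unadjusted p under 0.05 (13.2%). Depth is not given with FPKM. Genes with 1 transcript of about 1807 bases had 0.03 FPKM as their most frequent low value in all 4 libraries, taken here as 1 read. That value is rounded to 2 decimals, so depth can still differ between the libraries. All 11 pachytene markers were at 1 FPKM or more in every library. Their summed levels were 5731 and 6015 FPKM in the Tcfl5+/- libraries and 5843 and 6026 FPKM in the wild-type libraries, most of it Ldhc. Of the 11, 1 (Spata16) was higher and 4 (Sycp1, Mybl1, Ccna1 and Hspa2) were lower in both Tcfl5+/- libraries. Ccna1 was at 96.18 and 81.98 FPKM in Tcfl5+/- and 142.71 and 160.28 FPKM in wild-type libraries. Over all tested genes, 23.6% were higher and 19% lower in this way, the shares to set beside each marker count here. Markers of round and elongating spermatids, cells that have already divided, summed to 2419 and 1991 FPKM in the Tcfl5+/- libraries and 1478 and 641 FPKM in the wild-type libraries. Most of it was Prm1, Prm2, Tnp1 and Tnp2. These and Tssk6 were the 5 of 10 higher in both Tcfl5+/- libraries, and 0 were lower. Acrv1, Spaca1, Odf1, Gapdhs and Akap4 overlapped between the genotypes. Acrv1 was at 35.45 and 17.04 FPKM in Tcfl5+/- and 49.58 and 21.95 FPKM in wild-type libraries. Spermatogonial markers summed to 83.1 and 77.0 FPKM in Tcfl5+/- and 79.6 and 56.8 FPKM in wild-type libraries, chiefly Id4 and Uchl1, with 3 of 10 at 1 FPKM or more in every library and with 2 of 10 (Id4 and Gfra1) higher and 2 (Stra8 and Nanos3) lower in both Tcfl5+/- libraries. Stra8 was at 0.93 and 0.81 FPKM in the Tcfl5+/- libraries, against 3.77 and 1.48 FPKM in the wild-type libraries. Sertoli cell markers summed to 541.1 and 184.7 FPKM in Tcfl5+/- and 549.4 and 359.5 FPKM in wild-type libraries, Leydig cell markers to 575.1 and 309.4 FPKM in Tcfl5+/- and 529.2 and 332.4 FPKM in wild-type libraries, and immune markers to at most 1.65 FPKM. Of the 6 Leydig cell markers 2 were lower (Hsd3b1 and Lhcgr) and 0 higher in both Tcfl5+/- libraries, and of the Sertoli cell and immune markers 0 were higher or lower in this way. No marker of these lists was at 0 in all 4 libraries. The part of these other cells in the values below was not tested. In bulk RNA, fewer cells of a type and less RNA per cell cannot be told apart. The labels do not tell whether the replicates are separate animals, so each p-value measures the spread of these samples alone, and that may be technical.

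Levels of the members spanned more than 2 orders of magnitude. Securin (Pttg1) was the most abundant, with a median of 176.5 FPKM over the 4 libraries, and Cdc20 followed at 123.7 FPKM. Fzr1 at 58.8 and Bub3 at 51.7 FPKM came next, and their ranges overlapped. Bub3 and the next gene, Ttk at 41.4 FPKM, did not overlap. From Ttk down through Bub1b (32.8 FPKM), Espl1 (24.0 FPKM), Bub1 (18.3 FPKM) and Mad2l1 (15.5 FPKM), each range overlapped with that of its neighbour in the order. Within single libraries, Ttk was above Bub1b, Bub1b above Espl1 and Espl1 above Bub1 in 4 of 4, whereas Bub1 was above Mad2l1, and Fzr1 above Bub3, in 3 of 4. Fbxo5 stood far below, with a median of 0.705 FPKM. The other 9 members lay between the 72.6th and 97.7th percentile of all 19445 genes in every library, and Fbxo5 between the 33.3rd and 38.0th. At 0.03 FPKM a read, the Fbxo5 values correspond to about 21.3 to 35 reads a library, or 18.3 to 42 when the rounding of that step is allowed for, so its level is the least certain.

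**Figure D1:**
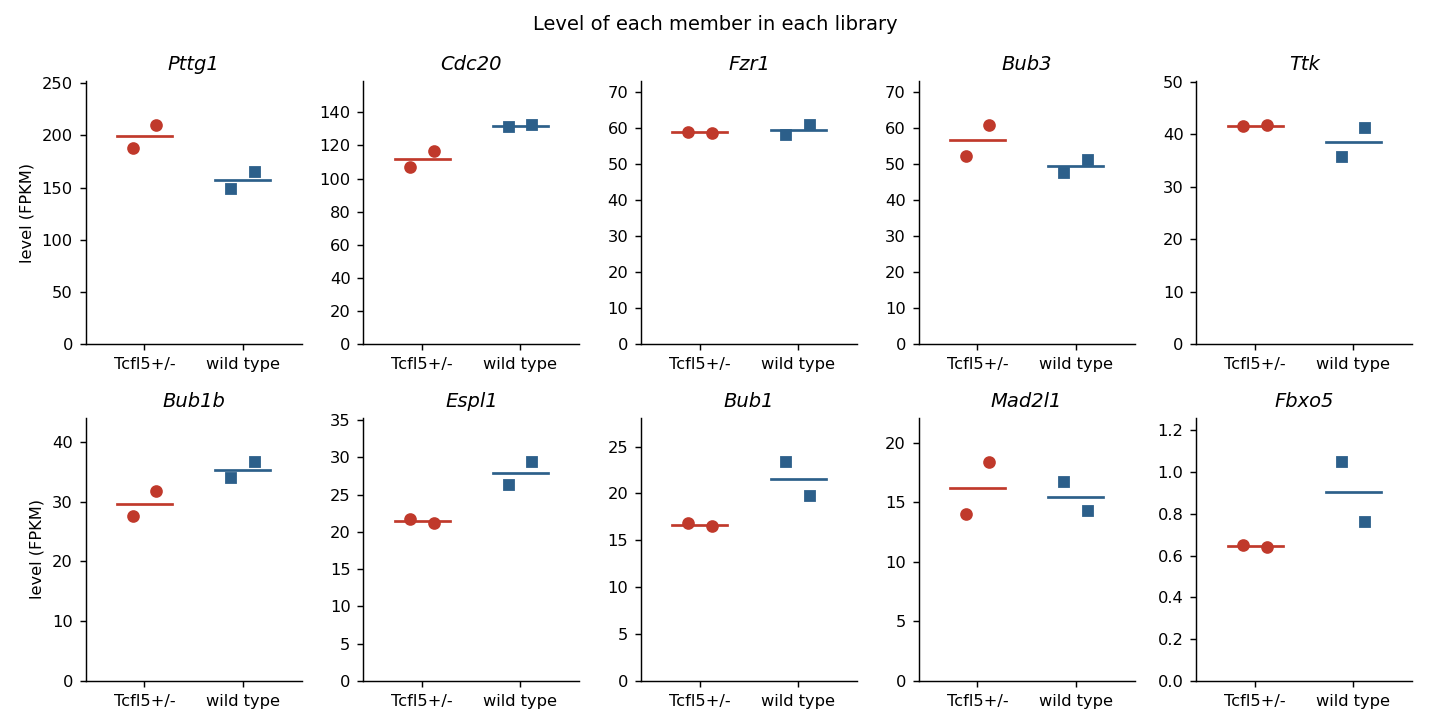
FPKM of each member (y axis from 0, scale differs by panel) in the 2 Tcfl5+/- libraries (red circles, left) and the 2 wild-type libraries (blue squares, right), with the group mean as a bar, ordered by level. Pttg1, Bub3 and Ttk are higher and Cdc20, Bub1b, Espl1, Bub1 and Fbxo5 lower in both Tcfl5+/- libraries than in either wild-type library.

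Promoter letters shared by these genes are shown because many genes of the later cell cycle carry a CCAAT box and a cell cycle homology region near their start, the letters bound by the NF-Y and MuvB complexes. All 10 members matched the RefSeq promoter table of GRCm38.p6, with 11 windows of 250 bases before to 50 after a start. Members were counted by gene, over any window of the gene, and all promoters by window, so the shares differ in unit. The letters TTTGAA, on either strand, were in a window of 6 of the 10 (Bub1b, Bub3, Cdc20, Espl1, Fbxo5 and Ttk), against 17.9% of all 32851 windows, and CCAAT was in 8 of 10 against 37.4%. The other form of the homology region, TTTAAA, was found for Fbxo5 alone (13.2% of all windows). The E-box CACGTG, letters bound by many basic helix-loop-helix proteins, was found for Ttk and Espl1 (7.15% of all windows), and AACNG, the core bound by Myb proteins, for all 10 (80.3% of all windows). No different motifs overlapped in these windows. The 250 bases upstream of the start follow, 5′ to 3′ on the strand of the gene, for Bub1 and Cdc20, which were lower in Tcfl5+/- cells, and for Bub3, which was higher. Capitals mark CCAAT and TTTGAA or their reverse complements, and the regions on GRCm38.p6 are chr2:127831860-127832109 (minus strand), chr4:118437344-118437593 (minus strand) and chr7:131560120-131560369 (plus strand), in that order.
Bub1: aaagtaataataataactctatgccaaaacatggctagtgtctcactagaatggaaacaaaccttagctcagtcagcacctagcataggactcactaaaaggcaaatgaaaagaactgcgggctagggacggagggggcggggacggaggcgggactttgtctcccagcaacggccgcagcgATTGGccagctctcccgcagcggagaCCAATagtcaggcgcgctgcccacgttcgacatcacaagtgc
Cdc20: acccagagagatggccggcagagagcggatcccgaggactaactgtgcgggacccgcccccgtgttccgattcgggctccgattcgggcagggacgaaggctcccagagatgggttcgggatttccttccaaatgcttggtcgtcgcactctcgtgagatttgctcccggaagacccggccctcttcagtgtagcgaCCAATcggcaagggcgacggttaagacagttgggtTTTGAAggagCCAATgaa
Bub3: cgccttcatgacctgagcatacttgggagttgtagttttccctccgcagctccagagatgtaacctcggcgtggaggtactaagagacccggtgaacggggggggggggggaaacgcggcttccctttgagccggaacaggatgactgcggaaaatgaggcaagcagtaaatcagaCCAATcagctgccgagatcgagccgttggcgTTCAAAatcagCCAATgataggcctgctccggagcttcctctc
In Cdc20 the TTTGAA begins at -18 and lies between CCAAT boxes that begin at -53 and -8. The Bub3 stretch has the same arrangement with the hexamer in reverse, at -43 between CCAAT boxes at -74 and -32. Bub1 has CCAAT letters at -68 and -42, on opposite strands, and no TTTGAA. A further Bub3 window, of a start downstream, holds the same hexamer at -167 from that start. In the windows of other members, TTTGAA or its reverse begins at -27 in Espl1, 4 in Fbxo5, 8 in Ttk and 41 in Bub1b, counted from the first transcribed base as 1. The Mad2l1 and Pttg1 windows held neither TTTGAA nor CCAAT. The Pttg1 window, chr11:43425932-43426231 (minus strand), is of a start downstream and lies within the gene, whose start in the files is 43426248. The bases upstream of that start were not searched. These matches are letters in a window and were not tested as sites. On the deposited scale, genes with both sets of letters were among those higher (Bub3, Ttk) and those lower (Cdc20, Espl1, Bub1b, Fbxo5) in Tcfl5+/- cells. The groups of Bub3 and Ttk overlapped under each of the 4 other scalings, and those of Bub1b with median-ratio scaling. A link between letters and direction was not tested.

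Between the genotypes, differences of the members were small and ran in both directions. None of the 10 passed the test (0 of 10, against 0% of all genes), with adjusted p from 0.248 to 0.957, and 4 were at an unadjusted p under 0.05 (Pttg1, Espl1, Cdc20 and Bub1), where 13.2% of all genes were. Of these 4, 1 was higher and 3 were lower, beside 7.63% of all genes higher and 5.57% lower. The count of 4 was 0 with median-ratio scaling, where 1206 of all 13333 genes were under that threshold. With correction for transcript length it was 0 (1218 of 13332 genes), and with upper-quartile scaling 2 (1406 of 13333). It stayed at 4 with equal-sum scaling (1633 of all 13333 genes), quantile normalization (1690) and a pseudocount of 0.1 (1734). The count was also 4 without a filter (2282 of 19445 genes) and with at least 1 FPKM in 2 libraries (1706 of 12059). With the replicate number as a block it was 5, where 3090 of all 13333 genes were under that threshold. For 8 of the 10 the libraries of the genotypes did not overlap, 3 being higher and 5 lower in Tcfl5+/- cells. Over all tested genes this held for 42.6%, with 23.6% higher and 19% lower. With values scaled to an equal sum the split over all genes was 18.6% higher and 23.5% lower, and the members then had 1 higher and 6 lower. The count was 5 of 10 with median-ratio scaling, where 38.4% of all genes did not overlap. The median log2 difference of the 10 was -0.11, beside -0.015 for all tested genes, and the median of its size without sign was 0.22, beside 0.17.

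**Figure D2:**
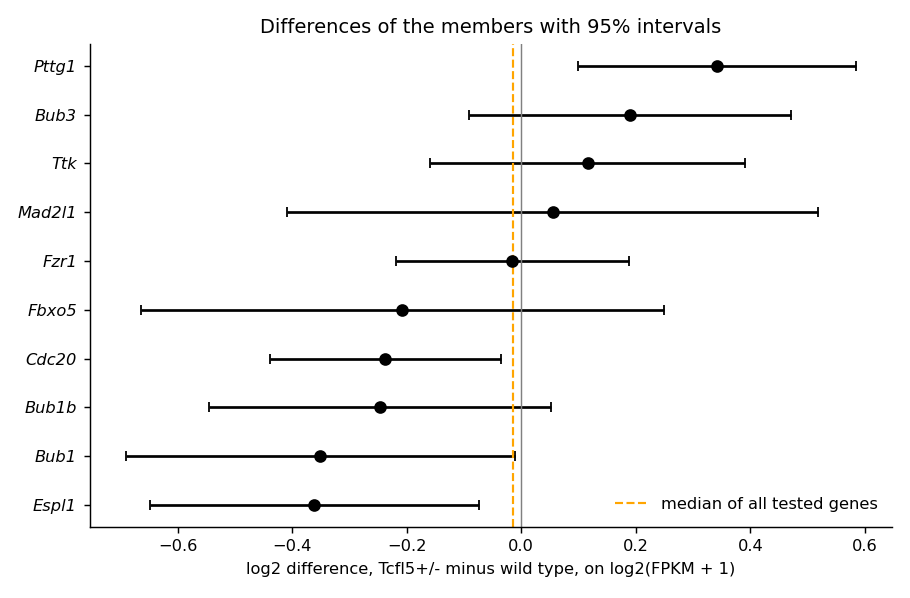
Log2 difference of each member, Tcfl5+/- minus wild type, on the log2(FPKM + 1) scale (x axis), with 95% intervals from limma-trend, 2 libraries per genotype. The dashed line is the median of all 13333 tested genes, -0.015. The estimates run from -0.36 (Espl1) to 0.34 (Pttg1), and the intervals of Pttg1, Cdc20, Bub1 and Espl1 leave out 0 before adjustment.

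The kinases differed in direction. Bub1, on chromosome 2 from 127800197 to 127831859 (GRCm38, minus strand), encodes the kinetochore kinase that brings in other checkpoint proteins and, through a histone mark, shugoshin. It was at 16.8 and 16.5 FPKM in the Tcfl5+/- libraries, against 23.4 and 19.8 FPKM in the wild-type libraries. The Tcfl5+/- libraries were close together and both below the lower wild-type library. The Tcfl5+/- mean was 16.7 ± 0.219 FPKM and the wild-type mean 21.6 ± 2.57 FPKM (SD, n = 2 each), 1.30-fold lower in Tcfl5+/- cells, with a log2 difference of -0.35 (SE 0.13, limma-trend adjusted p = 0.362). The difference was -0.23 without wild-type replicate 1, which had the highest level. Bub1b, also on chromosome 2, from 118598202 to 118641592 (plus strand), encodes the pseudokinase of the mitotic checkpoint complex. Its level was 27.5 and 31.8 FPKM in the Tcfl5+/- libraries, against 33.9 and 36.7 FPKM in the wild-type libraries. Both Tcfl5+/- libraries were below both wild-type libraries. The means of 29.7 ± 2.98 FPKM in Tcfl5+/- cells and 35.3 ± 1.99 FPKM in wild-type cells (SD, n = 2 each) differed 1.19-fold, with a log2 difference of -0.25 (SE 0.12, adjusted p = 0.479). The difference was -0.15 without Tcfl5+/- replicate 1, and with median-ratio scaling or correction for transcript length the Bub1b groups overlapped. Ttk, on chromosome 9 from 83834651 to 83872390 (plus strand), encodes the kinase at the top of the checkpoint. Its values were 41.5 and 41.8 FPKM in the Tcfl5+/- libraries, against 35.6 and 41.2 FPKM in the wild-type libraries. Wild-type replicate 2 was just below both Tcfl5+/- libraries, and wild-type replicate 1 was the low one. The log2 difference was 0.12 (SE 0.11, adjusted p = 0.768). It was 0.014 without wild-type replicate 1, 0.22 without wild-type replicate 2 and 0.065 with values scaled to an equal sum, and the groups overlapped under each of the 4 other scalings.

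The adaptors of the checkpoint complex were Bub3 and Mad2l1. Bub3, on chromosome 7 from 131560370 to 131571895 (plus strand), encodes a WD-repeat protein that carries Bub1 and Bub1b to kinetochores. It was at 52.3 and 60.8 FPKM in the Tcfl5+/- libraries, against 47.5 and 51.1 FPKM in the wild-type libraries. Both Tcfl5+/- libraries were higher, and the gap between the genotypes was smaller than the difference between the replicates of either. Means were 56.5 ± 6.05 FPKM in Tcfl5+/- cells and 49.3 ± 2.53 FPKM in wild-type cells (SD, n = 2 each), with a log2 difference of 0.19 (SE 0.11, adjusted p = 0.590), and the groups overlapped under each of the 4 other scalings. The difference was 0.30 without Tcfl5+/- replicate 1 and 0.083 without Tcfl5+/- replicate 2. Mad2l1, on chromosome 6 from 66535226 to 66541109 (plus strand), encodes the protein that changes shape to close around Cdc20. Its values were 14.0 and 18.4 FPKM in the Tcfl5+/- libraries, against 16.7 and 14.3 FPKM in the wild-type libraries. The Tcfl5+/- libraries were the lowest and the highest of the 4. The log2 difference was 0.05 with a 95% interval from -0.41 to 0.52, and it turned to -0.13 without Tcfl5+/- replicate 2 and to -0.05 without wild-type replicate 2.

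Among the regulators of the anaphase-promoting complex, Cdc20 was lower in Tcfl5+/- cells and Fzr1 was nearly level. Cdc20, on chromosome 4 from 118432901 to 118437343 (minus strand), encodes the activator that the checkpoint restrains. It was at 106.7 and 116.5 FPKM in the Tcfl5+/- libraries, against 130.9 and 132.4 FPKM in the wild-type libraries. The groups were apart by more than the replicates of either genotype differed. Means were 111.6 ± 6.89 FPKM in Tcfl5+/- cells and 131.6 ± 1.09 FPKM in wild-type cells (SD, n = 2 each), 1.18-fold lower in Tcfl5+/- cells, with a log2 difference of -0.24 (SE 0.08, limma-trend adjusted p = 0.302). Of the 50-base words in Cdc20 transcripts, 10.6% also occur in GENCODE transcripts of AC132235.3, Gm7856 and the overlapping neighbour Elovl1. Some reads of this length could therefore be assigned elsewhere. Elovl1 was at 2.82 to 3.43 FPKM in the 4 libraries. Fzr1, on chromosome 10 from 81366879 to 81378370 (minus strand), encodes the activator that takes over in late division and in interphase. Its level was 59.0 and 58.7 FPKM in the Tcfl5+/- libraries, against 58.2 and 60.8 FPKM in the wild-type libraries. The groups overlapped, and the highest library stood in a smaller ratio to the lowest than for any other member. Its log2 difference was -0.015 with a 95% interval from -0.22 to 0.19. Fbxo5, on the same chromosome from 5799158 to 5805465 (minus strand), encodes an inhibitor of the complex. It was at 0.65 and 0.64 FPKM in the Tcfl5+/- libraries, against 1.05 and 0.76 FPKM in the wild-type libraries. Both Tcfl5+/- libraries were lower, on few reads, and 8.71% of its 50-base words occur in transcripts of other genes. Its log2 difference of -0.21 (SE 0.18, adjusted p = 0.747) was -0.42 with a pseudocount of 0.1, as the value 1 added before taking logs is larger than most of its levels. It was -0.097 without wild-type replicate 1, -0.32 without wild-type replicate 2 and -0.14 with quantile normalization.

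Separase and its inhibitor differed in opposite directions. Pttg1, on chromosome 11 from 43420248 to 43426248 (minus strand), encodes securin, which binds separase until anaphase. It was at 188.2 and 209.9 FPKM in the Tcfl5+/- libraries, against 148.8 and 164.8 FPKM in the wild-type libraries. The lower Tcfl5+/- library was above the higher wild-type library, by more than the replicates of either genotype differed. Means were 199.0 ± 15.4 FPKM in Tcfl5+/- cells and 156.8 ± 11.3 FPKM in wild-type cells (SD, n = 2 each), 1.27-fold higher in Tcfl5+/- cells, with a log2 difference of 0.34 (SE 0.09, limma-trend adjusted p = 0.248, the smallest of the 10). It was the member that stayed higher without overlap under each of the scalings run. Espl1, on chromosome 15 from 102296252 to 102324357 (plus strand), encodes separase, the protease that cuts cohesin. Its level was 21.7 and 21.1 FPKM in the Tcfl5+/- libraries, against 26.3 and 29.4 FPKM in the wild-type libraries. The Tcfl5+/- libraries were close together, and the gap to the lower wild-type library was larger than the difference between the replicates of either genotype. Means were 21.4 ± 0.417 FPKM in Tcfl5+/- cells and 27.9 ± 2.22 FPKM in wild-type cells (SD, n = 2 each), 1.30-fold lower in Tcfl5+/- cells, with a log2 difference of -0.36 (SE 0.11, adjusted p = 0.279).

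Ratios of partner genes within a library are not moved by a single scaling factor for the library, though quantile normalization and correction for transcript length can move them. The ratio of Espl1 to Pttg1 was 0.115 and 0.101 in the Tcfl5+/- libraries, against 0.177 and 0.179 in the wild-type libraries. Separase transcripts per securin transcript, on the per-length scale, were thus lower in both Tcfl5+/- libraries, 0.607 of the wild-type ratio. Bub1b to Bub3 was 0.527 and 0.522 in the Tcfl5+/- libraries, against 0.713 and 0.719 in the wild-type libraries. Here the replicates of each genotype nearly coincided, and the ratio was 0.733 of that in the wild type. Bub1 to Bub3 was 0.322 and 0.271 in the Tcfl5+/- libraries, against 0.492 and 0.387 in the wild-type libraries. Cdc20 to Fzr1, the balance of the activators, was 1.81 and 1.99 in the Tcfl5+/- libraries, against 2.25 and 2.18 in the wild-type libraries. Cdc20 was the more abundant activator in every library. Mad2l1 to Cdc20, inhibitor over target, was 0.131 and 0.158 in Tcfl5+/- and 0.128 and 0.108 in wild-type libraries, and Fbxo5 to Fzr1 was 0.0110 and 0.0109 in Tcfl5+/- and 0.0181 and 0.0125 in wild-type libraries. The log2 difference of Mad2l1 to Cdc20, 0.30, was 0.16 without Tcfl5+/- replicate 2 and 0.17 without wild-type replicate 2. That of Fbxo5 to Fzr1, -0.45, was -0.19 without wild-type replicate 1 and -0.72 without wild-type replicate 2. None of the 6 ratios overlapped between the genotypes. These ratios share genes, so they are not 6 separate results. Taken singly, 8 of the 10 members did not overlap, beside 42.6% of all tested genes. The share for ratios of other gene pairs was not computed. Each of the 6 ratios had p = 0.333 in an exact two-sided permutation test of log2 ratios (0.333 adjusted over the 6). That is the smallest value 4 libraries allow, so the design cannot pass a threshold of 0.05 in this test.

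**Figure D3:**
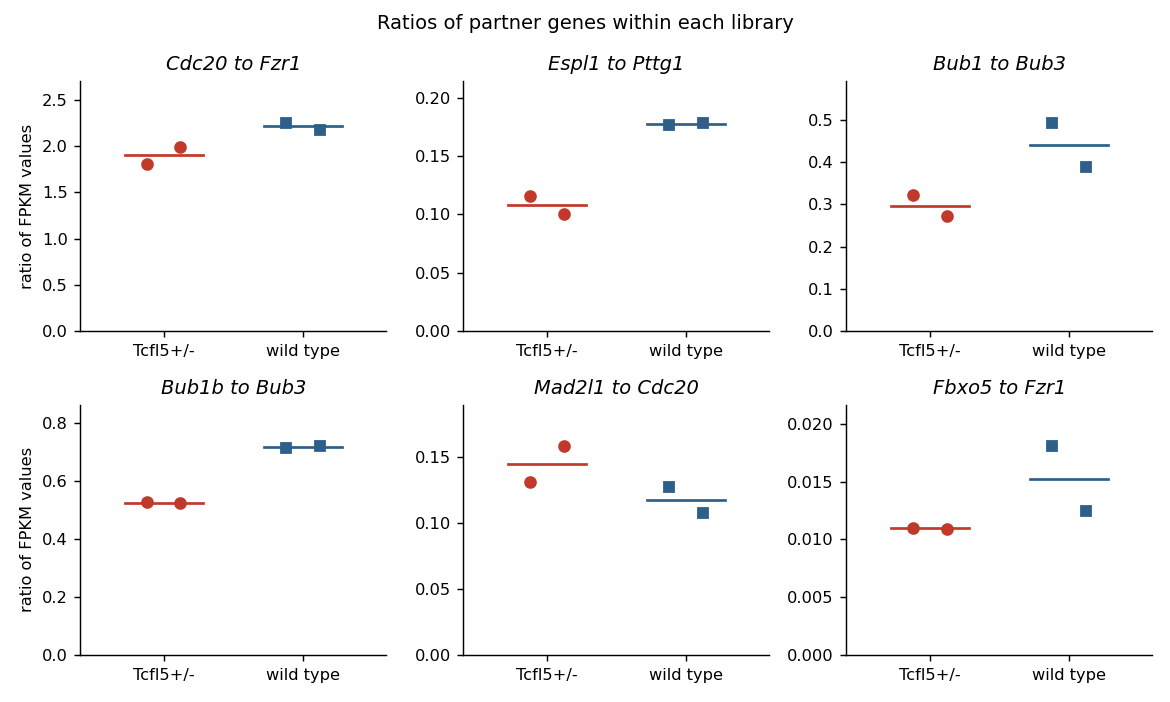
Ratio of the FPKM values of partner genes within each library (y axis from 0), in the 2 Tcfl5+/- libraries (red circles, left) and the 2 wild-type libraries (blue squares, right), with the group mean as a bar. Espl1 to Pttg1 is 0.115 and 0.101 in the Tcfl5+/- libraries and 0.177 and 0.179 in the wild-type libraries. None of the 6 ratios, which share genes, overlaps, and the share for other gene pairs was not computed.

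Transcript length moved with the difference between the genotypes over all genes. Among tested genes averaging 10 FPKM or more, the median log2 difference was 0.15 for the 606 genes of up to 1000 bases and -0.07 for the 621 genes over 6000 bases. Genes lower in both Tcfl5+/- libraries made up 8.09% of the shortest class and 39.5% of the longest, and genes higher in both made up 45.5% and 19.5%. Among the lower members, Espl1 at 7016, Bub1 at 4337 and Bub1b at 3680 bases had long transcripts, whereas Cdc20 at 1784 and Fbxo5 at 1807 bases were short. Pttg1, at 1690 bases, was in a class of median 0.08. After subtraction of the length trend, a setting added after the data were seen, the log2 difference was -0.31 for Espl1, -0.32 for Bub1, -0.23 for Bub1b, -0.27 for Cdc20 and 0.31 for Pttg1. Their adjusted p under limma-trend then ran from 0.644 to 0.822.

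**Figure D4:**
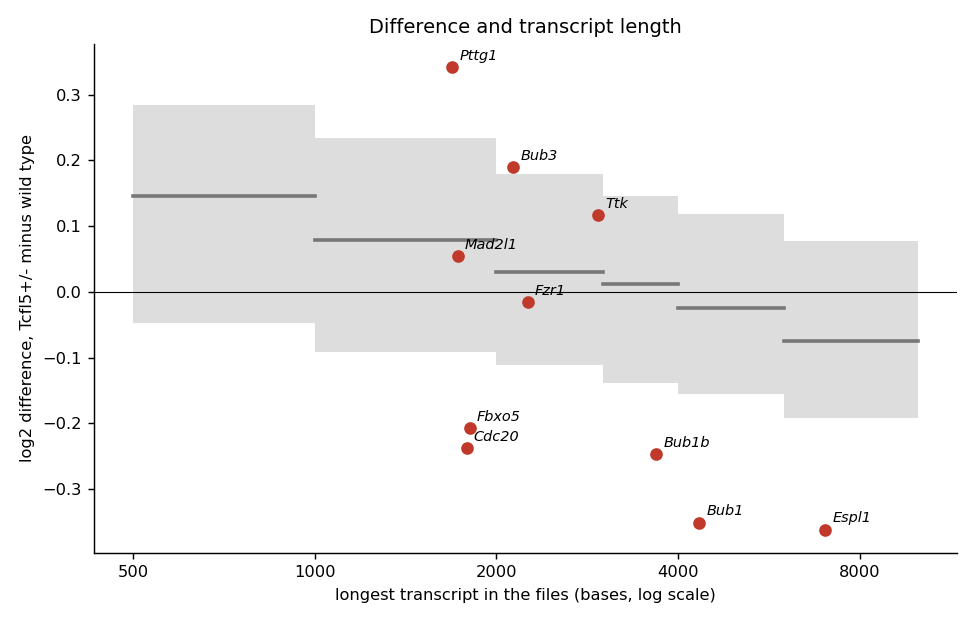
Log2 difference of each member, Tcfl5+/- minus wild type (y axis), against its longest transcript in the files (x axis, bases, log scale). Grey bars are the median and grey bands the quartiles of tested genes averaging 10 FPKM or more in each length class, and the outermost classes are cut off at their drawn ends. The medians go from 0.15 in the shortest class to -0.07 in the longest, and Cdc20, Fbxo5, Bub1b, Bub1 and Espl1 lie below the band of their class, and Pttg1 and Bub3 above, Fbxo5 itself averaging less than 10 FPKM.

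Other genes of the pathway were counted in the same fit, and none of them passed. Their counts of genes without overlap were made on the deposited scale alone, and the split over all genes turned under equal-sum scaling. Of 18 genes of kinetochore and checkpoint signalling, all tested, 7 were higher and 2 lower in both Tcfl5+/- libraries, beside 23.6% and 19% of all genes, with a median log2 difference of 0.08. Mad1l1, which encodes the kinetochore receptor of Mad2l1, had the smallest p of this list. It was at 30.2 and 31.5 FPKM in the Tcfl5+/- libraries, against 18.9 and 19.3 FPKM in the wild-type libraries, a log2 difference of 0.66 (SE 0.10, adjusted p = 0.144). Spc24, a subunit of the Ndc80 complex that binds microtubules, was at 17.4 and 21.1 FPKM in Tcfl5+/- and 13.7 and 9.96 FPKM in wild-type libraries. Dsn1, of the Mis12 complex, was at 36.8 and 42.1 FPKM in Tcfl5+/- and 28.9 and 33.1 FPKM in wild-type libraries, and its partner Pmf1 at 25.3 and 29.1 FPKM in Tcfl5+/- and 23.4 and 19.2 FPKM in wild-type libraries. All 4 were higher in both Tcfl5+/- libraries.

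The list of the anaphase-promoting complex held 17 genes, among them conjugating enzymes and the inhibitor Fbxo43, and all were tested. Of the 17, 5 were higher and 3 lower in both Tcfl5+/- libraries, with a median log2 difference of -0.0092. Both shares were close to the 23.6% and 19% of all genes. Anapc11, the RING subunit, was at 47.3 and 49.0 FPKM in the Tcfl5+/- libraries, against 31.4 and 32.5 FPKM in the wild-type libraries, a log2 difference of 0.58 (SE 0.09, adjusted p = 0.144). Anapc15, needed for turnover of the checkpoint complex, was at 59.9 and 63.1 FPKM in Tcfl5+/- and 45.9 and 47.9 FPKM in wild-type libraries. Cdc27, a scaffold subunit that docks the activators, was instead at 26.2 and 24.97 FPKM in Tcfl5+/- and 34.1 and 33.9 FPKM in wild-type libraries. Ube2c, the conjugating enzyme that starts ubiquitin chains for the complex, was at 15.6 and 14.6 FPKM in Tcfl5+/- and 22.2 and 21.4 FPKM in wild-type libraries, a log2 difference of -0.50 (SE 0.11, adjusted p = 0.198).

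Of 10 further substrates of the complex, a list that leaves out securin (Pttg1, higher in both Tcfl5+/- libraries), 4 were lower and 0 higher in both Tcfl5+/- libraries, beside 19% and 23.6% of all genes. Their median log2 difference was -0.07. Aurkb, the kinase of the chromosomal passenger complex, was at 8.85 and 7.84 FPKM in the Tcfl5+/- libraries, against 15.4 and 21.9 FPKM in the wild-type libraries. This 2.23-fold difference, -1.05 on the log2 scale (SE 0.21, adjusted p = 0.173), was the largest of the listed genes. Ccnb1, cyclin B, was at 21.9 and 15.1 FPKM in Tcfl5+/- and 30.9 and 28.3 FPKM in wild-type libraries, the kinase gene Plk1 at 46.5 and 35.2 FPKM in Tcfl5+/- and 52.9 and 55.0 FPKM in wild-type libraries and Tpx2, a spindle assembly factor, at 31.4 and 27.8 FPKM in Tcfl5+/- and 33.3 and 35.4 FPKM in wild-type libraries. In cohesion protection and cleavage, 9 of 10 genes were tested, 2 higher and 3 lower in both Tcfl5+/- libraries, beside 23.6% and 19% of all genes, with a median log2 difference of -0.20. Meikin, a meiotic kinetochore factor that protects cohesion at the first division, was at 27.0 and 29.9 FPKM in Tcfl5+/- and 21.7 and 21.3 FPKM in wild-type libraries. Sgo2a, the shugoshin of meiosis, was at 20.3 and 21.3 FPKM in Tcfl5+/- and 22.9 and 25.3 FPKM in wild-type libraries, and the cohesin release factor Wapl at 35.8 and 35.1 FPKM in Tcfl5+/- and 44.2 and 46.5 FPKM in wild-type libraries. Pds5b, a cohesin regulator, was at 7.38 and 8.92 FPKM in Tcfl5+/- and 9.60 and 9.58 FPKM in wild-type libraries.

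**Figure D5:**
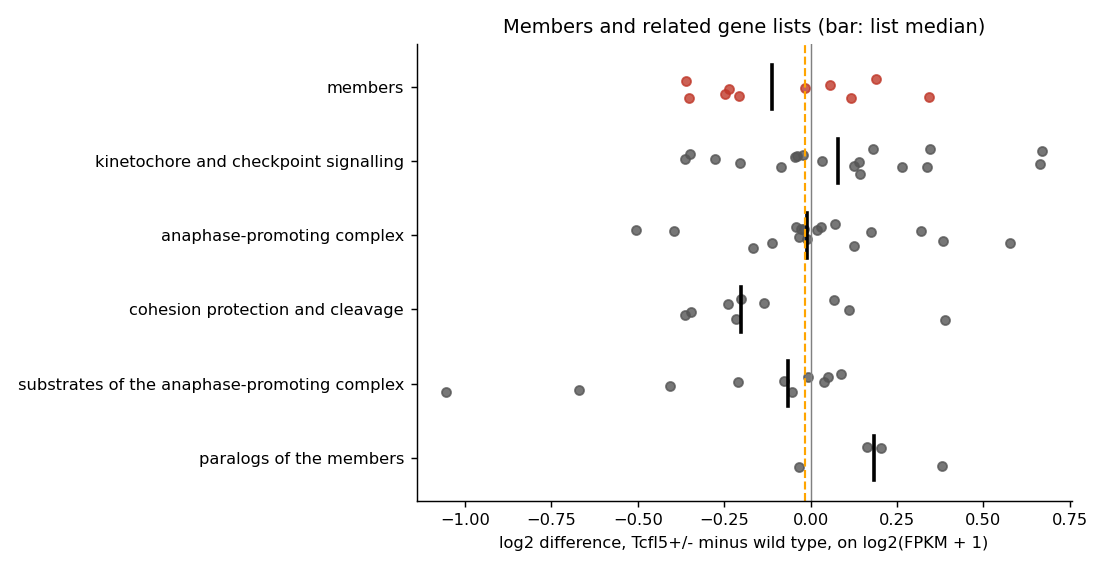
Log2 difference, Tcfl5+/- minus wild type, on the log2(FPKM + 1) scale (x axis) for the 10 members (red) and the tested genes of 5 related lists (grey), with the median of each list as a bar and that of all tested genes as a dashed line. List medians run from -0.20 to 0.18, and the lowest point is Aurkb at -1.05. Fbxo43 is drawn both with the anaphase-promoting complex and with the paralogs.

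Relatives of the members included genes more abundant than the members themselves. Mad2l2, a relative of Mad2l1 that works in DNA repair and restrains Fzr1, was at 364.3 and 391.3 FPKM in the Tcfl5+/- libraries, against 312.5 and 363.1 FPKM in the wild-type libraries. It was thus above every member in each library, and far above Mad2l1. Fbxo43, the relative of Fbxo5 that inhibits the complex in meiosis, was at 18.8 and 24.5 FPKM in the Tcfl5+/- libraries, against 17.2 and 28.1 FPKM in the wild-type libraries. It too was well above its relative in each library, and its groups overlapped. Fbxo43 was also counted in the list of the anaphase-promoting complex. Rae1, a relative of Bub3 in nuclear export, was at 42.6 and 46.9 FPKM in Tcfl5+/- and 41.3 and 36.2 FPKM in wild-type libraries, and Cdc20b at 2.75 and 3.40 FPKM in Tcfl5+/- and 2.13 and 2.11 FPKM in wild-type libraries. Of these 4 genes 3 were higher in both Tcfl5+/- libraries and 0 lower, beside 23.6% and 19% of all genes, with a median log2 difference of 0.18, and none passed the test.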

How the data were processed

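RNA of pachytene spermatocytes was measured in 2 Tcfl5+/- and 2 wild-type libraries. Per the labels' protocols, mRNA was captured with oligo(dT) beads and read as single ends of 50 bases, with no step named that keeps the strand. The deposited values are FPKM per gene, 1 file a library, per the file headers. HISAT2 2.0.4, Bowtie2 2.2.5 and RSEM 1.2.12 and the build GRCm38 are named in the submitters' processing notes, without their roles. Depth cannot be recovered from values written with 2 decimals.

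Files were joined by gene identifier. In each, 1 row without a gene and 1593 genes without a value in any file were left out, and genes missing from a library were set to 0. The 13333 genes averaging 0.5 FPKM or more were tested with limma-trend (limma 3.58.1, R 4.3.3) on log2(FPKM + 1), modelling genotype alone, with two-sided p-values adjusted over all of them by Benjamini-Hochberg with a threshold of 0.05. A count model had been planned for counts, and the files hold FPKM. Fold changes on this scale understate those of low genes, and ratios printed are of mean FPKM. Within-library ratios were compared by exact permutation, and their p-values were adjusted over the ratios in SciPy 1.17.1. Alternatives were another pseudocount, other filters and scalings, a replicate block, each library left out and, added after the data were seen, correction for transcript length. All members are named, and of each other list the 4 genes with the smallest p. The members, lists and tests were chosen with earlier results of these data known. Gene coordinates are those of the files. Shared 50-base words were counted in GENCODE transcripts of GRCm38.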

Additional observations from a re-analysis of the deposited data

How the results depend on the processing

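Under the alternatives tried, a member passed with the replicate block alone. Genes called over the whole table were 0 in the main fit and without any 1 library, 42 with median-ratio scaling, 135 with quantile normalization, 63 with correction for transcript length and 1213 with the replicate number as a block. The block called 1 member, Pttg1 (log2 difference 0.34, limma-trend adjusted p = 0.0218), and changed no other call of a member. The numbers are not said to mark a shared animal or day, and replicate differences of the genotypes correlated at 0.529 across genes. Members whose libraries did not overlap numbered 8, beside 42.6% of all genes. The number was 5 with median-ratio scaling (38.4% of all genes) and 5 with correction for transcript length (37.9%). It was 7 with equal-sum scaling (42.1% of all genes), 6 with upper-quartile scaling (40.6%) and 6 with quantile normalization (40.7%). It was 9 without any 1 library, where fewer pairs must differ and 65.7% to 76.1% of all genes did not overlap. The median log2 difference of the members was -0.17 to -0.07 without 1 library, -0.15 to -0.09 in other alternatives with all 10, and -0.015 over the 9 left by a filter of at least 1 FPKM in 2 libraries, which removed Fbxo5. Without 1 library, Mad2l1 ranged from -0.13 (without Tcfl5+/- replicate 2) to 0.24 and was -0.05 without wild-type replicate 2, and Fzr1 ranged from -0.047 to 0.017 (without wild-type replicate 2). The other members kept their direction in every alternative run. Leaving out 1 library leaves a lone sample, assumed to vary like the other genotype. Few reads limit the precision of Fbxo5. The cause of these changes was not tested.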
